A study of Mus musculus with 18 samples.

Results

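The H2 genes of the mouse, the major histocompatibility genes, were examined in whole-lung RNA. Every row of the deposited fragment table whose name starts with H2- was taken, which gave 44 of 23356 features. Of these, 32 are class I genes or pseudogenes, 10 belong to class II, and 2, H2-Ke2 and H2-Ke6, carry the prefix only for their place in the region. H2-Ke2 encodes a prefoldin subunit and H2-Ke6 a hydroxysteroid dehydrogenase. All 44 lie on chromosome 17 (mm10), between 33938909 and 37483529, a span of 3.54 Mb.

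Class I molecules pair a heavy chain with β2-microglobulin and show peptides from inside the cell to CD8 T cells; nearly all cells carry them, and lung endothelium and epithelium are rich in them. Class II molecules are pairs of an alpha and a beta chain, are made mainly by B cells, dendritic cells and macrophages, and show peptides from taken-up proteins to CD4 T cells. In the mouse lung alveolar type 2 cells also carry class II. The class II transactivator Ciita and an assembly of factors on the X and Y boxes of the promoters turn class II genes on, and interferon gamma raises both classes.

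The lungs came from male mice of the labelled strain C57BL/6 and of 3 genotypes. Mice were wild type, or lacked β-arrestin 1 (β-arrestin 1 -/-) or, by their label, β-arrestin 2 (β-arrestin 2 -/-), scaffolds that dock on stimulated G protein-coupled receptors. They were 8 to 12 weeks old at entry, with a labelled age of 12 to 16 weeks, and spent 4 weeks at normal altitude (normoxia, PAO2 about 150 mmHg) or at the air pressure of 18000 feet (hypoxia, PAO2 about 70 mmHg). About 30 mg of frozen tissue was used for each extraction, and 3 libraries, numbered 0 to 2, were sequenced in each of the 6 groups. Whether every library is a different animal, whether wild type mice were littermates of the mutants and how the alleles were made is not given in the labels, so each p-value measures only the spread among libraries.

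Between 16806806 and 25983090 fragments were counted per library. Arrb1 was lower in the β-arrestin 1 -/- libraries, at 83.7 to 118 CPM (fragments scaled to library size, with TMM factors) against 302 to 478 in wild type. Arrb2 did not drop under the β-arrestin 2 -/- label, where libraries held 30.7 to 46.5 CPM against 30.2 to 43.3 in wild type, so that label could not be checked from this gene, and "labelled" is written throughout. Arrb1 was also called lower in labelled β-arrestin 2 -/- normoxia than in wild type normoxia (log2 difference -0.705 ± 0.118 (SE), edgeR adjusted p = 0.00435). It held 262 to 319 CPM there, against 464 to 478. In hypoxia Arrb1 was not called (359 to 370 CPM against 302 to 405). The libraries labelled β-arrestin 2 -/- in normoxia were not alike at the H2 genes that separated the lines. There replicate 1 stood nearest to the hypoxia libraries of that label, and replicates 0 and 2 stood between them and the rest. At H2-Aa, H2-Ob and H2-T24 replicate 1 did not stand with the hypoxia libraries, as given below. Replicate 2 of β-arrestin 1 -/- hypoxia, the library of lowest total, stood apart at H2-Ke2 (75.2 CPM against 26.4 to 44.4 in the other 17) and H2-Ke6 (84.6 against 36.4 to 73.8). Lung markers were present in all libraries, among them the alveolar type 2 list, whose 7 measured members summed to 6997 to 11890.0 CPM. In whole lung, fewer cells of a type and less RNA per cell cannot be told apart.

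Of the 44 genes, 32 had enough fragments to be tested: 20 of class I, all 10 of class II, H2-Ke2 and H2-Ke6. The other 12 held at most 50 fragments each over all 18 libraries, and H2-L, H2-M1, H2-M10.4 and H2-M11 had 0 in every one. H2-Ea-ps, H2-Bl and H2-M5 passed the filter on low counts only through libraries labelled β-arrestin 2 -/-. In wild type normoxia the levels per gene length (FPKM) were led by the classical class I heavy chain gene H2-D1, at 834 ± 38.7 (SD, n = 3), followed by H2-K1, the other classical class I gene of this strain, at 656 ± 66.0. Next came the class II chain genes H2-Ab1 at 412 ± 58.5, H2-Aa at 355 ± 48.2 and H2-Eb1 at 208 ± 23.1; the SDs of H2-Ab1 and H2-Aa overlapped. H2-T23, which encodes Qa-1, the ligand of NKG2A receptors, followed at 139 ± 6.28 and H2-Q4 at 97.5 ± 14.7. The peptide-loading chain genes H2-DMa and H2-DMb1 stood at 31.0 ± 4.17 and 30.4 ± 4.61, which did not differ beyond their spread. H2-M3, whose product binds formylated peptides, stood at 17.1 ± 0.438, and H2-Ob, H2-Oa and H2-Eb2 at 3.56 ± 1.08, 2.42 ± 0.523 and 0.374 ± 0.204.

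The H2 genes with the widest difference between lines separated the libraries labelled β-arrestin 2 -/- from the other 12. Of the 32 tested, 9 were called higher and 0 lower than wild type in normoxia (edgeR quasi-likelihood test, adjusted p below 0.05). Of all 15388 tested genes 9.49% were called in this comparison, 4.0% higher and 5.49% lower. At an unadjusted p below 0.05, 14 H2 genes passed in either direction, beside 4867 of all 15388 genes. DESeq2 called 11 H2 genes, beside 2753 of all 15388 genes. Limma called 9, beside 1316 of 13618 genes in its fit of log2 FPKM plus 1. In hypoxia 7 were higher and 5 lower, against 0.923% of all genes called (0.344% higher and 0.578% lower). At an unadjusted p below 0.05, 21 H2 genes passed in hypoxia, beside 1802 of all 15388 genes. DESeq2 called 18 H2 genes, beside 481 of all 15388 genes, and limma 10, beside 111 of 13618. Both counts of higher genes hold H2-Ea-ps, which had to differ to pass the filter on low counts; without it they are 8 and 6. H2-K2, H2-Q1, H2-Q2, H2-Q10 and H2-M2 were called higher at both exposures, and each of these 10 calls held in all alternatives run. The 2 comparisons with wild type use different libraries; each shares its libraries with the hypoxia comparisons below.

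H2-Ea-ps, at chromosome 17 from 34342212 to 34344645 (mm10) and annotated as a transcribed pseudogene, is the alpha chain gene of the class II E molecule. In C57BL/6 a deletion over its promoter is known to leave the gene silent, so that these mice make no E molecule. The libraries labelled β-arrestin 2 -/- held 2196, 6081 and 3644 fragments in normoxia and 5227, 6436 and 5166 in hypoxia (replicates 0, 1 and 2). Wild type held 3, 2 and 2 in normoxia and 0, 0 and 0 in hypoxia. β-arrestin 1 -/- held 1, 0 and 1 in normoxia and 4, 0 and 0 in hypoxia. The lowest of the 6 labelled libraries lay far above the highest of the other 12, and no library lay between. Relative to the summed library totals, without TMM factors, the ratio to wild type was 1738 in normoxia, with a 95% interval from counting error of 843 to 4323. In hypoxia the level was at least 5546-fold higher, on the same scale, taking a floor of 3 fragments over the 3 wild type libraries. Since the gene entered the fit only through the libraries where it is high, its p-values are not given. Within the labelled libraries the gene made up 11.3% of the summed class II CPM in normoxia and 17.6% in hypoxia, and per length it stood at 266 ± 119 FPKM and 359 ± 23.005 FPKM, with H2-Aa in the same libraries at 397 ± 33.7 and 247 ± 20.1. At this gene the labelled libraries do not match the textbook description of their strain label; reads over the deleted interval are not analysed here, and what else besides the named allele differs between the lines cannot be told apart from it.

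**Figure D1:**
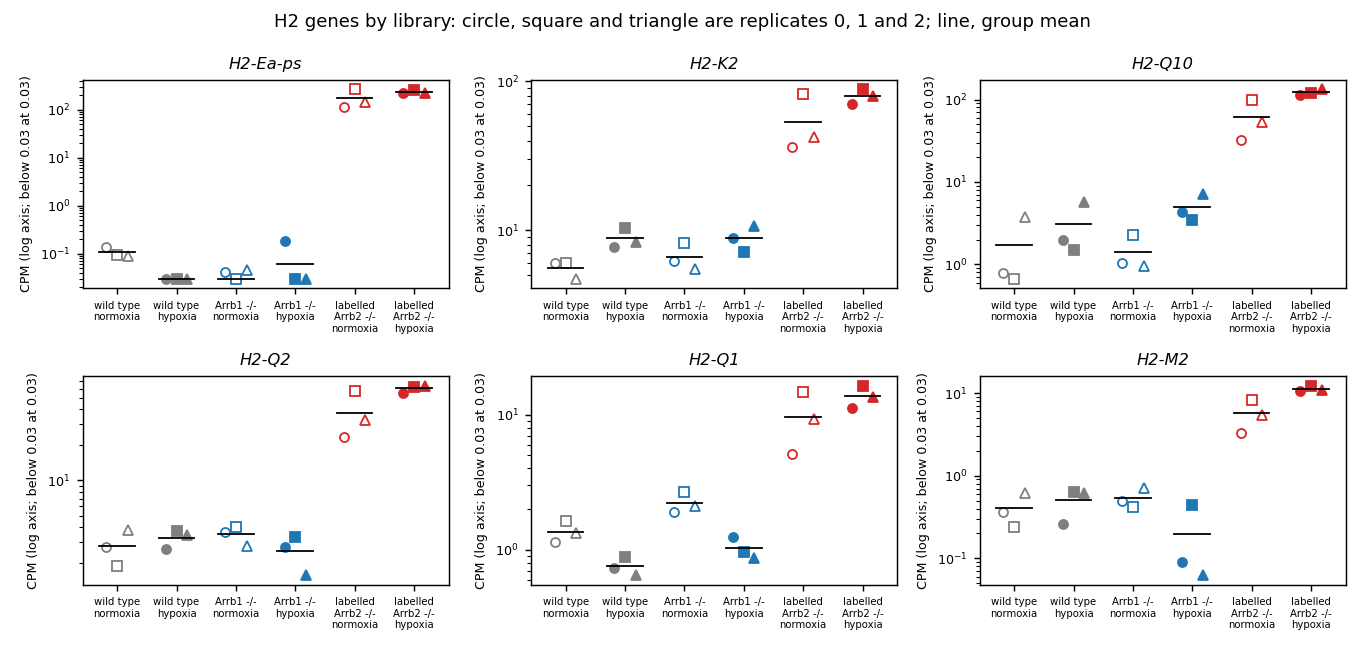
CPM on a log axis for 6 H2 genes in the 18 libraries (circle, square and triangle are replicates 0, 1 and 2; open, normoxia; filled, hypoxia; line, group mean; values below 0.03 are drawn at 0.03). The 6 libraries labelled β-arrestin 2 -/- lie above the other 12 in each panel, and in normoxia replicate 1 lies nearest to the hypoxia libraries of that label.

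Class I genes and pseudogenes of the K, Q and M parts of the region followed the same libraries. H2-K2, a class I pseudogene beside H2-K1, held 6.01, 6.02 and 4.73 CPM in wild type normoxia and 7.73, 10.41 and 8.37 in hypoxia. H2-K2 held 6.20, 8.25 and 5.47 in normoxia and 8.88, 7.11 and 10.7 in hypoxia in β-arrestin 1 -/- libraries, and 36.1, 81.9 and 42.4 in normoxia and 70.9, 88.3 and 79.6 in hypoxia in the labelled ones. The labelled libraries did not overlap with the other 12. The log2 difference from wild type was 3.26 ± 0.28 (SE), adjusted p = 6.99e-06 in normoxia and 3.17 ± 0.27 (SE), adjusted p = 8.69e-06 in hypoxia.

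H2-Q10 encodes a secreted class I protein best known from the liver. It held 0.780, 0.669 and 3.71 CPM in wild type normoxia and 2.00, 1.48 and 5.77 in hypoxia. H2-Q10 held 1.03, 2.26 and 0.941 in normoxia and 4.26, 3.49 and 7.07 in hypoxia in β-arrestin 1 -/- libraries, and 32.4, 98.7 and 53.1 in normoxia and 113, 120.5 and 133 in hypoxia in the labelled ones. The lowest labelled library lay well above the highest of the others. The log2 difference was 5.14 ± 0.64 (SE), adjusted p = 0.000456 in normoxia and 5.29 ± 0.62 (SE), adjusted p = 0.000253 in hypoxia.

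H2-Q2, a nonclassical gene of the Q part, held 2.71, 1.86 and 3.76 CPM in wild type normoxia and 2.61, 3.68 and 3.40 in hypoxia. H2-Q2 held 3.65, 4.01 and 2.78 in normoxia and 2.70, 3.27 and 1.56 in hypoxia in β-arrestin 1 -/- libraries, and 23.1, 56.8 and 32.2 in normoxia and 55.3, 62.2 and 63.3 in hypoxia in the labelled ones, again with no overlap. Its log2 differences from wild type were 3.75 ± 0.33 (SE), adjusted p = 9.15e-06 and 4.22 ± 0.33 (SE), adjusted p = 3.86e-06. H2-Q1, its neighbour, showed the same separation at lower levels. It held 1.15, 1.63 and 1.33 CPM in normoxia and 0.739, 0.889 and 0.650 in hypoxia in wild type. H2-Q1 held 1.89, 2.67 and 2.11 in normoxia and 1.24, 0.960 and 0.876 in hypoxia in β-arrestin 1 -/- libraries, and 5.09, 14.6 and 9.24 in normoxia and 11.2, 16.3 and 13.6 in hypoxia in the labelled ones. The differences from wild type on the log2 scale were 2.82 ± 0.32 (SE), adjusted p = 0.000176 and 4.17 ± 0.34 (SE), adjusted p = 4.94e-06. H2-M2, at the far end of the interval, separated the libraries in the same way. It held 0.367, 0.239 and 0.619 CPM in normoxia and 0.261, 0.635 and 0.612 in hypoxia in wild type. H2-M2 held 0.493, 0.415 and 0.717 in normoxia and 0.0915, 0.436 and 0.0626 in hypoxia in β-arrestin 1 -/- libraries, and 3.30, 8.28 and 5.49 in normoxia and 10.7, 12.2 and 10.9 in hypoxia in the labelled ones. The log2 differences were 3.78 ± 0.46 (SE), adjusted p = 0.000408 and 4.46 ± 0.45 (SE), adjusted p = 4.22e-05.

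H2-Q5, H2-T10 and H2-DMb2 were called higher in normoxia alone, and whether their difference from wild type changed with exposure was tested and not called (adjusted p = 0.750, 0.720 and 0.212, edgeR interaction term). H2-Q5, annotated as a transcribed pseudogene, held 5.41, 4.97 and 6.01 CPM in normoxia and 6.73, 9.31 and 15.1 in hypoxia in wild type. H2-Q5 held 7.80, 9.58 and 4.21 in normoxia and 6.64, 11.5 and 8.82 in hypoxia in β-arrestin 1 -/- libraries, and 10.49, 23.3 and 16.9 in normoxia and 25.3, 28.6 and 27.5 in hypoxia in the labelled ones. The labelled libraries did not overlap with wild type at either exposure, and the log2 difference was 1.63 ± 0.34 (SE), adjusted p = 0.0112 in normoxia; it lost the call without wild type replicate 1 (adjusted p = 0.0549) or labelled replicate 1 (0.0516). H2-T10, of the T part and also annotated as a transcribed pseudogene, held 2.80, 1.86 and 2.43 CPM in normoxia and 1.78, 3.26 and 4.89 in hypoxia in wild type. H2-T10 held 3.20, 3.13 and 2.24 in normoxia and 2.79, 3.27 and 4.07 in hypoxia in β-arrestin 1 -/- libraries, and 4.14, 5.32 and 4.68 in normoxia and 4.64, 6.78 and 5.36 in hypoxia in the labelled ones. The labelled libraries lay above wild type in normoxia and overlapped with it in hypoxia. H2-T10 differed by 0.99 ± 0.30 (SE), adjusted p = 0.0466 in normoxia and lost its call in 11 of 16 alternatives, among them each library left out. H2-DMb2, another beta chain gene of the class II peptide loader DM, differed by 1.16 ± 0.35 (SE), adjusted p = 0.0479 in normoxia and lost its call in 9 of 16 alternatives, again with each library left out. It held 3.07, 1.91 and 3.84 CPM in normoxia and 3.74, 10.37 and 6.57 in hypoxia in wild type. H2-DMb2 held 3.08, 2.58 and 3.77 in normoxia and 3.16, 6.07 and 3.13 in hypoxia in β-arrestin 1 -/- libraries, and 5.03, 7.98 and 6.78 in normoxia and 7.80, 8.08 and 7.84 in hypoxia in the labelled ones. Here too the labelled libraries lay above wild type in normoxia and overlapped with it in hypoxia.

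Among the labelled normoxia libraries the same order recurred at the 6 genes that separated the lines. Replicate 0 held 43.4%, 44%, 34.8%, 40.7%, 32.8% and 39.9% of the CPM of replicate 1 at H2-Ea-ps, H2-K2, H2-Q1, H2-Q2, H2-Q10 and H2-M2, and replicate 2 held 55.5%, 51.8%, 63.3%, 56.6%, 53.8% and 66.3%. Replicate 1 itself stood at 73.5% (H2-M2) to 113% (H2-Ea-ps) of the mean of the labelled hypoxia libraries. At H2-K1 and H2-Q7 the order was turned: replicates 0 and 2 held 130% and 149% of replicate 1 at H2-K1 and 114% and 176% at H2-Q7. Replicate 1 was far from the hypoxia mean at other genes, with 262% of it at H2-Ob, 148% at H2-Aa and 54.8% at H2-T24. No label sets these 3 libraries apart, and what does so was not tested.

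The genes between the H2 genes were looked up for the same libraries. Of 154 other genes in the interval, 109 were tested, and against wild type 10 were higher and 3 lower in normoxia (11.9%) and 4 higher and 3 lower in hypoxia (6.42%). The share in the interval was thus near the 9.49% of all genes in normoxia and above the 0.923% of all genes in hypoxia, with no test of the difference. Gm8909, C4a and Rps18 were chosen after their values were seen. Gm8909 and C4a separated the 6 labelled libraries from the other 12, and Rps18 set apart the 3 labelled hypoxia libraries and normoxia replicate 1. Gm8909, an unnamed gene model near the class I genes of the T part, held 20.2, 57.2 and 30.2 CPM in labelled normoxia and 62.4, 73.0 and 70.3 in hypoxia, against 0.461 to 1.05 in the other 12 libraries. C4a, a paralog of complement C4, held 3.98, 9.85 and 6.17 in normoxia and 5.42, 8.67 and 6.88 in hypoxia against 0.183 to 0.507. At C4a normoxia replicate 1 lay above the labelled hypoxia libraries and replicate 2 lay within their range. Rps18, whose product is part of the small ribosomal subunit and whose many close copies make its level uncertain, held 16.0, 0.131 and 13.8 in labelled normoxia and 0.0867, 0.0784 and 0.0436 in hypoxia, against 14.5 to 51.4: replicate 1 was low with the hypoxia libraries and replicates 0 and 2 lay near wild type. The log2 differences from wild type in hypoxia were 6.57 ± 0.36 for Gm8909, 4.33 ± 0.37 for C4a and -7.95 ± 1.25 for Rps18 (SE), all called.

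**Figure D2:**
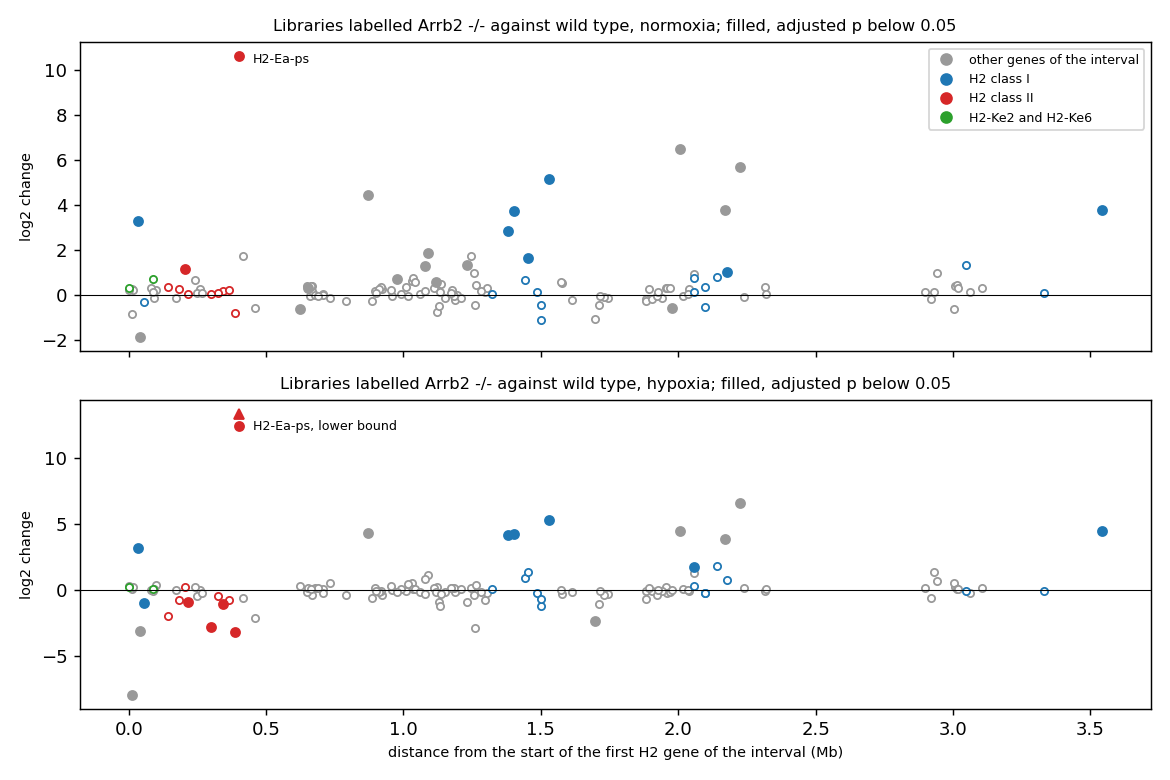
Log2 difference of the libraries labelled β-arrestin 2 -/- from wild type for each tested gene of the interval, by distance in Mb from the start of the first H2 gene (top, normoxia; bottom, hypoxia; blue, class I; red, class II; green, H2-Ke2 and H2-Ke6; grey, other genes; filled, adjusted p below 0.05). Genes with large differences lie among genes near 0 along the whole interval; H2-Ea-ps in hypoxia is drawn at its lower bound, since wild type held 0 fragments.

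Of the classical class I genes, H2-K1 was called in 1 comparison and H2-D1 in none. The reference promoters of H2-K1 and H2-D1 are shown because they carry the 2 best-known class I elements, next to those of H2-Q10 and H2-Q2, which separate the libraries. Each line gives the 250 bases before the start of the RefSeq transcript (GRCm38.p6, which is mm10; for H2-K1 the more downstream of 2 starts), read 5′ to 3′ on the strand of the gene. Capitals mark enhancer A, searched as GGGGATTCCCC, and the interferon-stimulated response element, searched as CAGTTTCACTTCT, on both strands. Both strings were read from the H2-K1 promoter itself. The regions are chr17:34000334-34000583 (minus strand), chr17:35262844-35263093, chr17:35469839-35470088 and chr17:35342057-35342306 (plus strand).
H2-K1: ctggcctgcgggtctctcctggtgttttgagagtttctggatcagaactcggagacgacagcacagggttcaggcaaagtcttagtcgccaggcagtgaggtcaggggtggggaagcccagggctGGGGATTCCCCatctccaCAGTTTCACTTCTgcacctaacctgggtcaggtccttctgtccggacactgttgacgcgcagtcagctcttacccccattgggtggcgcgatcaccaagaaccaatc
H2-D1: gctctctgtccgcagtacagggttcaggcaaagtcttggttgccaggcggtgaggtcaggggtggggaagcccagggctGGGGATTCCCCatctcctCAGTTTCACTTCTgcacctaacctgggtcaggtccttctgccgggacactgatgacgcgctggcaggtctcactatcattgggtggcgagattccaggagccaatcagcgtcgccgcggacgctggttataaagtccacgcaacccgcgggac
H2-Q10: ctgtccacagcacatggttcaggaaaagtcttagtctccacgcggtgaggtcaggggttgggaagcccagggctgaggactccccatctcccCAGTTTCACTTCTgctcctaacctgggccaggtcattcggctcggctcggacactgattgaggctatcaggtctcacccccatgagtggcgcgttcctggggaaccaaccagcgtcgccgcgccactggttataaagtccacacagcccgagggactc
H2-Q2: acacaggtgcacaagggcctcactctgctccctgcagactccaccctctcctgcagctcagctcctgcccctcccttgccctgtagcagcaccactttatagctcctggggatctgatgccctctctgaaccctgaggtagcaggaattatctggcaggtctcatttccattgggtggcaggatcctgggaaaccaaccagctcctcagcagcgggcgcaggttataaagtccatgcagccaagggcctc
H2-K1 and H2-D1 held both elements in the same order, H2-Q10 held the second, and neither string was in the H2-Q2 window. Enhancer A in these letters was in 10 of 32851 mouse promoters of this length (0.0304%), of which 4 belonged to 3 H2 genes, H2-D1, H2-K1 and H2-Q6. The interferon element was in 8 (0.0244%), of which 7 belonged to 6 H2 genes. Since both strings came from H2-K1, a match there was fixed in advance. Matches in related class I genes are a description and no separate support. The RefSeq table held promoters of 31 of the 44 genes. The sequence is that of the C57BL/6J reference and not of these libraries.

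H2-D1 held 1512, 1383 and 1435 CPM in wild type normoxia and 1272, 1515 and 1801 in hypoxia. H2-D1 held 1684, 1842 and 1324 in normoxia and 1463, 1682 and 2015 in hypoxia in β-arrestin 1 -/- libraries, and 1299, 1532 and 1646 in normoxia and 1506, 1649.5 and 1689.7 in hypoxia in the labelled ones. All groups overlapped, and no comparison called it (edgeR adjusted p from 0.614 to 0.998 over 9 comparisons). H2-K1 held 1187, 985 and 1032 in wild type normoxia and 973, 1211 and 1623 in hypoxia. H2-K1 held 1435, 1511 and 996 in normoxia and 1102, 1381 and 1611 in hypoxia in β-arrestin 1 -/- libraries, and 886, 682 and 1018 in normoxia and 568, 689.8 and 662 in hypoxia in the labelled ones. In hypoxia the labelled libraries lay below all 3 of wild type, with a log2 difference of -0.99 ± 0.21 (SE), adjusted p = 0.0287; the call was lost in 9 of 16 alternatives, with adjusted p up to 0.154 without wild type hypoxia replicate 2. In normoxia the groups overlapped (-0.31 ± 0.20 (SE), adjusted p = 0.300). The ratio of H2-K1 to H2-D1 within each library was 0.378, 0.418 and 0.392 in labelled hypoxia and 0.682, 0.446 and 0.618 in labelled normoxia, against 0.712 to 0.901 in the other 12 libraries, so each labelled library lay below all others on this ratio.

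H2-T24 and H2-T23 are neighbouring nonclassical genes whose deposited intervals are the same, so that their split of fragments is uncertain. Both were higher in hypoxia than in normoxia in the labelled line. H2-T24 held 48.4, 41.7 and 54.9 CPM in wild type normoxia and 50.4, 69.5 and 44.0 in hypoxia. H2-T24 held 31.8, 49.3 and 31.8 in normoxia and 57.8, 78.0 and 35.3 in hypoxia in β-arrestin 1 -/- libraries, and 69.6, 98.1 and 77.1 in normoxia and 211, 176 and 151 in hypoxia in the labelled ones. The 3 labelled hypoxia libraries lay above all 15 others, with a log2 difference of 1.13 ± 0.26 (SE), adjusted p = 0.00660 over labelled normoxia and 1.71 ± 0.26 (SE), adjusted p = 0.00369 over wild type hypoxia. Both calls held in all alternatives run, and the difference between the hypoxia responses of the lines was not called (0.96 ± 0.36 (SE), adjusted p = 0.112). H2-T23 held 163, 201 and 198 in labelled normoxia and 263, 292 and 263 in labelled hypoxia, against 181, 166 and 175 in normoxia and 176, 222 and 262 in hypoxia in wild type and 224, 259.9 and 146 in normoxia and 209, 269.6 and 288 in hypoxia in β-arrestin 1 -/-. The difference of H2-T23 between labelled hypoxia and normoxia was 0.54 ± 0.18 (SE), adjusted p = 0.0451. Its call was lost in 8 of 16 alternatives, among them each labelled library left out. Without labelled normoxia replicate 0 the adjusted p was 0.153. At H2-T24, labelled normoxia replicates 0 and 2 held 71% and 78.6% of the CPM of replicate 1. How far differences among the labelled normoxia libraries enter these comparisons was not tested.

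The other class I genes named here were not called in any of the comparisons, apart from H2-M5. H2-Q4 held 205, 158 and 163 in normoxia and 153, 199 and 292 in hypoxia in wild type (CPM). H2-Q4 held 278, 270.4 and 149 in normoxia and 176, 246 and 215 in hypoxia in β-arrestin 1 -/- libraries, and 204, 347 and 273 in normoxia and 357, 435 and 407 in hypoxia in the labelled ones; the labelled hypoxia libraries lay above the other 15, with a log2 difference of 0.90 ± 0.26 (SE), adjusted p = 0.127 against wild type. H2-Q7, the gene of the lipid-anchored Qa-2 protein, held 50.3, 38.3 and 47.7 in normoxia and 31.7, 45.0 and 71.8 in hypoxia in wild type. H2-Q7 held 69.1, 70.1 and 32.9 in normoxia and 33.0, 53.7 and 70.1 in hypoxia in β-arrestin 1 -/- libraries, and 28.7, 25.1 and 44.1 in normoxia and 19.2, 23.3 and 20.6 in hypoxia in the labelled ones. In hypoxia the labelled libraries lay below all of wild type, with a log2 difference of -1.24 ± 0.34 (SE), adjusted p = 0.103. H2-Q6, which shares its deposited interval with H2-Q8, was given less than 1 fragment in all libraries together, while H2-Q8 held 35.5 to 108. H2-T22, a paralog of H2-T10, held 25.1, 22.9 and 27.4 in normoxia and 19.9, 25.7 and 31.3 in hypoxia in wild type. H2-T22 held 28.2, 32.1 and 18.4 in normoxia and 21.1, 25.6 and 18.1 in hypoxia in β-arrestin 1 -/- libraries, and 17.04, 15.04 and 19.6 in normoxia and 21.9, 23.96 and 17.9 in hypoxia in the labelled ones, with the lines overlapping in hypoxia. H2-M3 held 23.3, 23.3 and 24.3 in normoxia and 21.6, 29.8 and 33.0 in hypoxia in wild type. H2-M3 held 27.4, 30.4 and 23.9 in normoxia and 23.2, 31.3 and 27.9 in hypoxia in β-arrestin 1 -/- libraries, and 20.2, 27.5 and 25.8 in normoxia and 26.8, 27.1 and 25.1 in hypoxia in the labelled ones, and all lines overlapped. H2-M5 stood near the floor, at 0.229, 0.191 and 0.221 in normoxia and 0.217, 0.254 and 0.153 in hypoxia in wild type and 0.164, 0.369 and 0.403 in normoxia and 0.229, 0.0873 and 0 in hypoxia in β-arrestin 1 -/-. It held 0.577, 0.610 and 0.444 in labelled normoxia and 0.173, 0.235 and 0.174 in labelled hypoxia. It passed the filter only through the 3 labelled normoxia libraries, where it is high, so no test is given for its lower values in labelled hypoxia.

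**Figure D3:**
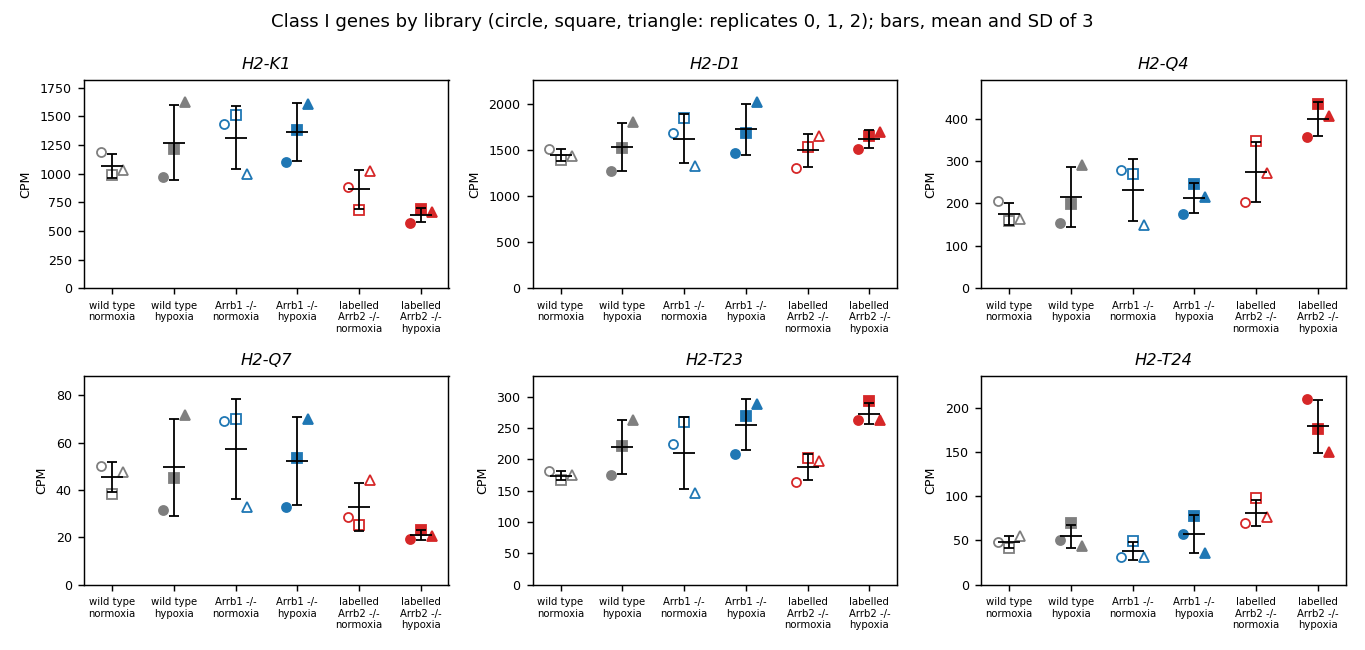
CPM of 6 class I genes by library (circle, square and triangle are replicates 0, 1 and 2; open, normoxia; filled, hypoxia; bars, mean and SD of 3). H2-K1 and H2-Q7 have their lowest means and H2-Q4 and H2-T24 their highest in labelled β-arrestin 2 -/- hypoxia, while H2-D1 overlaps between all groups.

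Class II genes were compared for hypoxia in each line. A set of class II promoters is shown because the conserved X and Y boxes sit there: capitals mark the core of the X box, searched as GCAAC, and the Y box, searched as TGATTGG, on the strand of the gene. Each line again gives 250 bases before the RefSeq start, at chr17:34287824-34288073 (minus strand), chr17:34305617-34305866, chr17:34238655-34238904 and chr17:34152941-34153190 (plus strand).
H2-Aa: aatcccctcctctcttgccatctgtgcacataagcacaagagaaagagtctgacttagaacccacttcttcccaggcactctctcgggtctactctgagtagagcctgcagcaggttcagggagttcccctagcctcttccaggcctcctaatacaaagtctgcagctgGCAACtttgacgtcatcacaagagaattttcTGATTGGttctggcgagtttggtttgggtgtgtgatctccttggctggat
H2-Eb1: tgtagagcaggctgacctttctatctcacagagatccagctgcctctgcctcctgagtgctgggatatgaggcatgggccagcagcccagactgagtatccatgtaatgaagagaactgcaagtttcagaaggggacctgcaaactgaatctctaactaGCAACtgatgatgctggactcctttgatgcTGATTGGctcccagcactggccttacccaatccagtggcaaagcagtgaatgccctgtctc
H2-Ob: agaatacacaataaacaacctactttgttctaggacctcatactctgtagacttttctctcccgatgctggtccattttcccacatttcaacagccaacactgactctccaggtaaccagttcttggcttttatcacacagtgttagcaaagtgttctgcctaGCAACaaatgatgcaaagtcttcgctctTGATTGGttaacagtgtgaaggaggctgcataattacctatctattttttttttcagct
H2-DMb1: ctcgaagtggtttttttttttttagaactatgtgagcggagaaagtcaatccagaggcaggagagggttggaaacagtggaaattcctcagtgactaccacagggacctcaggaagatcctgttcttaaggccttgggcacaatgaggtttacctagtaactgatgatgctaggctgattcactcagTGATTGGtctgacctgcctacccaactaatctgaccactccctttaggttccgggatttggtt
In H2-Aa, H2-Eb1 and H2-Ob the 2 strings stood 26, 25 and 23 bases apart, with the X core first, and in H2-DMb1 the Y box alone was matched. GCAAC on either strand was in 29.9% of 32851 promoters and TGATTGG in 7.23%, while GCAAC followed within 50 bases by TGATTGG on 1 strand was in 125 (0.381%), among them 5 of 35 promoters of H2 genes (H2-Aa, H2-Eb1, H2-Eb2, H2-Oa and H2-Ob). Of the class II genes called below, H2-Aa, H2-Oa, H2-Ob and H2-Eb2 are among those 5, while H2-DMa and H2-DMb1 are not. H2-Eb1 is among the 5 and was not called. Only exact letters were searched, so a box with a changed letter is missed. H2-DMb1 holds gtaactgatgatgc before its Y box, where H2-Eb1 holds gcaactgatgatgc. Whether the boxes go with the calls was not tested.

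In wild type mice 3 class II genes of peptide loading were called higher in hypoxia and 0 H2 genes lower, of 32 tested, against 4.76% of all genes called (2.85% higher and 1.92% lower). At an unadjusted p below 0.05, 12 H2 genes passed, beside 2985 of all 15388 genes. DESeq2 called 5 H2 genes, beside 1280 of all 15388 genes, and limma 1, beside 582 of 13618. H2-DMa and H2-DMb1 encode the chains of DM, which loads peptides onto class II molecules, and H2-Ob encodes the beta chain of DO, which restrains DM and is made mainly by B cells. H2-Ob held 9.17, 7.36 and 13.3 CPM in wild type normoxia and 11.1, 31.7 and 26.6 in hypoxia. H2-Ob held 10.9, 12.0 and 9.73 in normoxia and 11.4, 22.4 and 19.5 in hypoxia in β-arrestin 1 -/- libraries, and 11.6, 8.499 and 10.13 in normoxia and 3.94, 2.78 and 3.01 in hypoxia in the labelled ones. In wild type, hypoxia replicate 0 lay within the range of normoxia and replicates 1 and 2 above it, with a change of 1.22 ± 0.32 (SE), adjusted p = 0.0433. H2-DMb1 held 39.5, 30.6 and 41.0 in normoxia and 50.1, 57.1 and 80.8 in hypoxia in wild type. H2-DMb1 held 55.2, 55.8 and 46.3 in normoxia and 53.9, 62.8 and 72.8 in hypoxia in β-arrestin 1 -/- libraries, and 37.0, 31.6 and 43.1 in normoxia and 31.4, 36.5 and 31.7 in hypoxia in the labelled ones. The wild type groups did not overlap, with a change of 0.76 ± 0.17 (SE), adjusted p = 0.0221. H2-DMa held 53.2, 43.4 and 56.4 in normoxia and 60.0, 85.8 and 116 in hypoxia in wild type. H2-DMa held 70.8, 76.3 and 57.7 in normoxia and 63.5, 89.5 and 112 in hypoxia in β-arrestin 1 -/- libraries, and 58.5, 57.2 and 66.5 in normoxia and 47.8, 54.3 and 50.01 in hypoxia in the labelled ones. The wild type groups did not overlap here either, and the change was 0.78 ± 0.21 (SE), adjusted p = 0.0479. Leaving out wild type normoxia replicate 0 or 1, or wild type hypoxia replicate 2, left 0 H2 genes called. Without hypoxia replicate 1 there was 1, and without hypoxia replicate 0 there were 8. Over all genes these fits called 319, 209, 324, 372 and 943 in that order. Hypoxia replicate 0 was the lowest of its group at H2-Aa, H2-Ab1, H2-Eb1, H2-DMa, H2-DMb1 and H2-Ob.

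The chains of the A and E molecules had higher means in wild type hypoxia without being called. H2-Aa held 356, 297 and 389 CPM in normoxia and 355, 508 and 665 in hypoxia (0.55 ± 0.19 (SE), adjusted p = 0.121), H2-Ab1 held 475, 389.7 and 517 in normoxia and 451, 661 and 837 in hypoxia (0.50 ± 0.20 (SE), adjusted p = 0.190), and H2-Eb1 held 340.2, 308 and 384 in normoxia and 342, 527 and 664 in hypoxia (0.57 ± 0.20 (SE), adjusted p = 0.122). The 3 genes kept the order of the libraries, with replicate 2 highest and replicate 0 lowest in hypoxia. Of the 9 class II genes other than H2-Ea-ps, 9 had a log2 change above 0, with a median of 0.78, beside a median of 0.00 over all tested genes and 50.4% of them above 0. Summed B cell markers were higher in hypoxia too, at 17.2 to 56.0 CPM in wild type normoxia. They were 57.1, 229 and 110.4 CPM in hypoxia (replicates 0, 1 and 2). Replicate 0 was again the lowest, but replicate 1 and not replicate 2 was the highest. Of 9 tested B cell markers 5 were called higher, against 2.85% of all genes, among them Cd79a (2.25 ± 0.53 (SE), adjusted p = 0.0243), a chain of the B cell receptor. T and NK cell markers were higher too, with 4 of 11 called, against the same 2.85%, and sums of 18.1 to 39.0 CPM in normoxia against 42.6 to 75.4 in hypoxia. None of the listed B cell, T and NK cell or dendritic cell markers that the table holds was at 0 in every library of a group, and the part of these cells in the class II values was not tested.

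**Figure D4:**
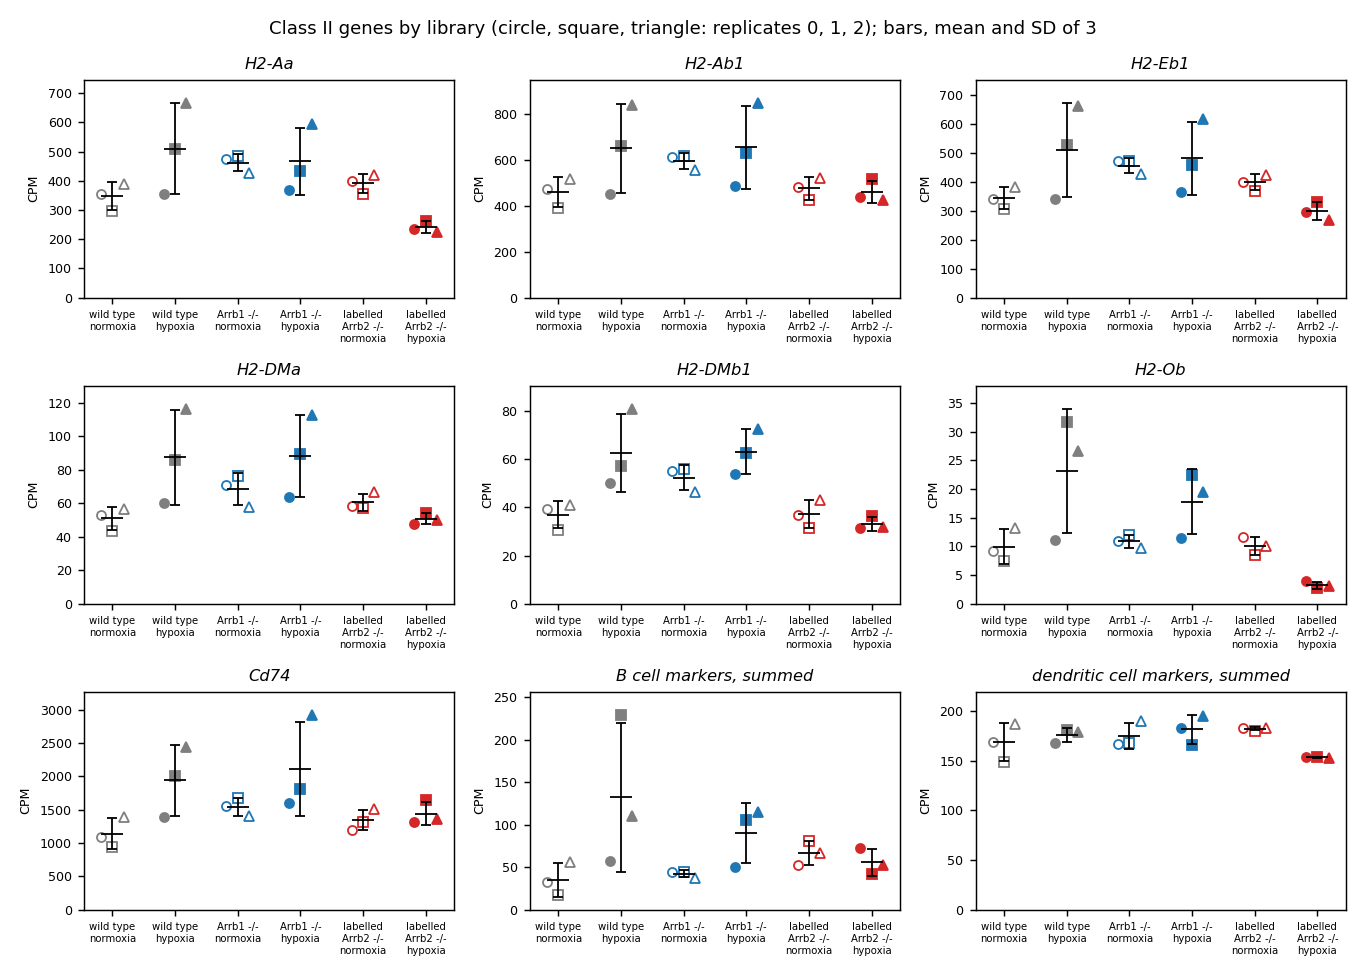
CPM of 6 class II genes, of the invariant chain gene Cd74 and of the summed B cell and dendritic cell markers by library (circle, square and triangle are replicates 0, 1 and 2; open, normoxia; filled, hypoxia; bars, mean and SD of 3). In wild type the hypoxia means lie above normoxia with replicate 0 lowest, and in labelled β-arrestin 2 -/- hypoxia H2-Aa and H2-Ob lie below all other libraries.

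In β-arrestin 1 -/- mice 0 of 32 H2 genes were called with hypoxia by edgeR, against 2.95% of all genes. Of the 32, 7 passed an unadjusted p below 0.05, beside 2747 of all 15388 genes. DESeq2 called 1 H2 gene, beside 841 of all 15388 genes, and limma 0, beside 409 of 13618. H2-Aa held 475, 483 and 427 CPM in normoxia and 369, 435 and 594 in hypoxia, H2-Ab1 614, 617 and 556 in normoxia and 487, 628 and 846 in hypoxia, and H2-Eb1 471, 471 and 428 in normoxia and 366, 459 and 618 in hypoxia. The groups overlapped for all 3. As in wild type, 9 of the 9 class II genes other than H2-Ea-ps had a log2 change above 0. Their median was 0.34, beside 0.02 over all tested genes, with 52.8% of all tested genes above 0. B cell markers summed to 37.5 to 44.9 CPM in normoxia and 49.9 to 115 in hypoxia, with 0 of 9 called by edgeR and 4 at an unadjusted p below 0.05. Against wild type, β-arrestin 1 -/- had 0 H2 genes called in normoxia, where 0.221% of all genes were, and 0 in hypoxia, where 0.201% were. At an unadjusted p below 0.05 there were 2 at each exposure, beside 1341 of all 15388 genes in normoxia and 1739 in hypoxia. DESeq2 and limma called 0 H2 genes. Over all genes DESeq2 called 176 in normoxia and 155 in hypoxia, and limma 31 and 30. The difference between the hypoxia responses of β-arrestin 1 -/- and wild type was called for 0 H2 genes and for 0.0% of all genes by edgeR. It passed an unadjusted p below 0.05 for 0 H2 genes, beside 898 of all 15388 genes. DESeq2 and limma called it for 0 H2 genes, beside 9 and 0 of all genes. For H2-Ob that difference was -0.51 ± 0.46 (SE), adjusted p = 0.841, and for H2-DMb1 -0.49 ± 0.24 (SE), adjusted p = 0.807.

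In the labelled β-arrestin 2 -/- line H2-Aa, H2-Oa and H2-Ob of class II were lower in hypoxia than in normoxia, and H2-T23 and H2-T24 of class I were higher. With H2-M5, which entered only through the group where it is high, these made 6 of 32, 2 higher and 4 lower, and stand beside 21.9% of all genes called (11.1% higher and 10.8% lower), so the share of H2 genes was near the background. Leaving out 1 library changed the 6 to 2 (normoxia replicate 0, hypoxia replicate 0 or 2) or 3 (normoxia replicate 2 or hypoxia replicate 1). Without normoxia replicate 1 it became 8. Over all genes these fits called 1710 to 3107. H2-Ob fell from 11.6, 8.499 and 10.13 CPM to 3.94, 2.78 and 3.01, the lowest 3 of the 18 libraries. The change was -1.64 ± 0.35 (SE), adjusted p = 0.00483 and held in all alternatives run. H2-Aa fell from 398, 356 and 419 to 235, 264 and 225, again the lowest 3 values of the 18, with a log2 change of -0.70 ± 0.19 (SE), adjusted p = 0.0195. The call of H2-Aa was lost when labelled normoxia replicate 0 or 2 or hypoxia replicate 0 or 2 was left out (adjusted p 0.0543 to 0.0686). H2-Oa, the alpha chain of DO, fell from 2.57, 2.66 and 3.51 to 0.867, 1.25 and 1.26, the lowest 3 of the 18 libraries too. H2-Oa held 1.74, 2.49 and 2.70 in normoxia and 1.91, 7.28 and 4.24 in hypoxia in wild type, and 2.38, 2.58 and 3.496 in normoxia and 1.65, 3.75 and 6.01 in hypoxia in β-arrestin 1 -/-. Its change of -1.36 ± 0.46 (SE), adjusted p = 0.0456 lost the call without each of the labelled libraries. The labelled normoxia libraries were not alike at the genes that separated the lines. How far that enters the comparison of labelled hypoxia with labelled normoxia was not tested.

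The beta chain genes of the A and E molecules were not called. H2-Ab1, the beta chain of A, held 483, 424 and 522 CPM in labelled normoxia and 439.8, 516 and 427 in hypoxia (-0.05 ± 0.20 (SE), adjusted p = 0.888), and the groups overlapped. H2-Eb1, the beta chain of E, held 400.5, 369.7 and 426 in normoxia and 298, 332 and 269.8 in hypoxia without overlap (-0.41 ± 0.20 (SE), adjusted p = 0.148) and was not called. Within each library the ratio of H2-Aa to H2-Ab1 was 0.534, 0.510 and 0.528 in labelled hypoxia, 0.824, 0.840 and 0.803 in labelled normoxia and 0.692 to 0.795 in the other 12 libraries. Labelled hypoxia was thus below every other library on this ratio, while labelled normoxia, replicate 1 included, lay above them all. H2-Eb2, a second E beta chain gene with a low level, held 1.24, 0.669 and 2.12 in normoxia and 0.695, 5.54 and 4.13 in hypoxia in wild type. H2-Eb2 held 1.48, 1.34 and 1.66 in normoxia and 1.56, 2.53 and 1.56 in hypoxia in β-arrestin 1 -/- libraries, and 1.10, 0.262 and 0.968 in normoxia and 0.433, 0.392 and 0.305 in hypoxia in the labelled ones. It was -3.18 ± 0.65 (SE), adjusted p = 0.0263 against wild type in hypoxia and lost that call without any 1 of the 3 labelled libraries or without wild type replicate 1 or 2.

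The hypoxia responses of the labelled line and of wild type were compared directly. The difference was called below 0 for 4 of 32 H2 genes, all of class II, against 6.05% of all genes in either direction and 2.56% below 0. It was -2.85 ± 0.48 (SE), adjusted p = 0.00615 for H2-Ob, which held in all 22 alternatives, and -1.25 ± 0.28 (SE), adjusted p = 0.0197 for H2-Aa, which lost its call without wild type normoxia replicate 1 (0.0571) or wild type hypoxia replicate 2 (0.0522). For H2-Oa it was -2.32 ± 0.64 (SE), adjusted p = 0.0435 and for H2-DMb1 -0.92 ± 0.25 (SE), adjusted p = 0.0393; these lost their calls in 14 and 12 of 22 alternatives. Of the 12 libraries, leaving out wild type normoxia replicate 1 or hypoxia replicate 2 gave 1 call. Leaving out wild type hypoxia replicate 0 gave 7 and wild type normoxia replicate 2 gave 3. Labelled normoxia replicate 1 kept the count at 4, and each of the other 7 gave 2. Over all genes these fits called 313 to 2022. Between the lines in hypoxia, H2-Ob was -2.83 ± 0.35 (SE), adjusted p = 0.000425, H2-Aa -1.08 ± 0.20 (SE), adjusted p = 0.0132 and H2-DMb1 -0.92 ± 0.17 (SE), adjusted p = 0.0174 in the labelled line relative to wild type. The call of H2-Ob held in all alternatives run, while those of H2-Aa and H2-DMb1 were lost in 4 and 5 of 16, among them the fit of the compared groups alone (adjusted p = 0.0738 for both). These comparisons share libraries and do not count as separate support.

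Markers of some cell types that carry class II were lower beside these genes, read against the 21.9% of all genes called in this comparison, 10.8% lower. Of 13 tested dendritic cell markers, 8 were called lower and 1 higher in labelled hypoxia, among them Ccl22 (-2.30 ± 0.28 (SE), adjusted p = 0.000154), a chemokine of mature dendritic cells, and their sums were 180.2 to 183 CPM in normoxia and 153 to 154 in hypoxia. Of 9 tested markers of interstitial macrophages and monocytes 6 were called lower, among them C1qc (-0.93 ± 0.20 (SE), adjusted p = 0.00531), with sums of 348 to 412 CPM against 214 to 277. B cell markers summed to 52.9 to 81.1 CPM in labelled normoxia and 41.9 to 72.8 in hypoxia, and 0 of 9 were called by edgeR. Of these 9, 0 passed an unadjusted p below 0.05, beside 5724 of all 15388 genes. Alveolar macrophage markers (8 tested) and alveolar type 2 markers (7 tested) had 0 called by edgeR and 0 at an unadjusted p below 0.05, with median log2 changes of 0.30 and -0.04. All 4 tested markers of the mesothelium, the surface layer of the lung, were called lower too, among them Msln (-1.23 ± 0.34 (SE), adjusted p = 0.0186). In the test of the difference between the hypoxia responses, 5 of 13 dendritic cell markers were called below 0 and 1 above, 2 of 9 interstitial macrophage and monocyte markers below, and 1 of 9 B cell markers below, against 6.05% of all genes. Between the lines in hypoxia, 0 of the 9 B cell markers were called by edgeR. Of these 9, 8 passed an unadjusted p below 0.05, beside 1802 of all 15388 genes. Their sums were 41.9 to 72.8 CPM in the labelled libraries against 57.1 to 229 in wild type. The part of each cell type in the lower values of H2-Aa, H2-Oa and H2-Ob was not tested.

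**Figure D5:**
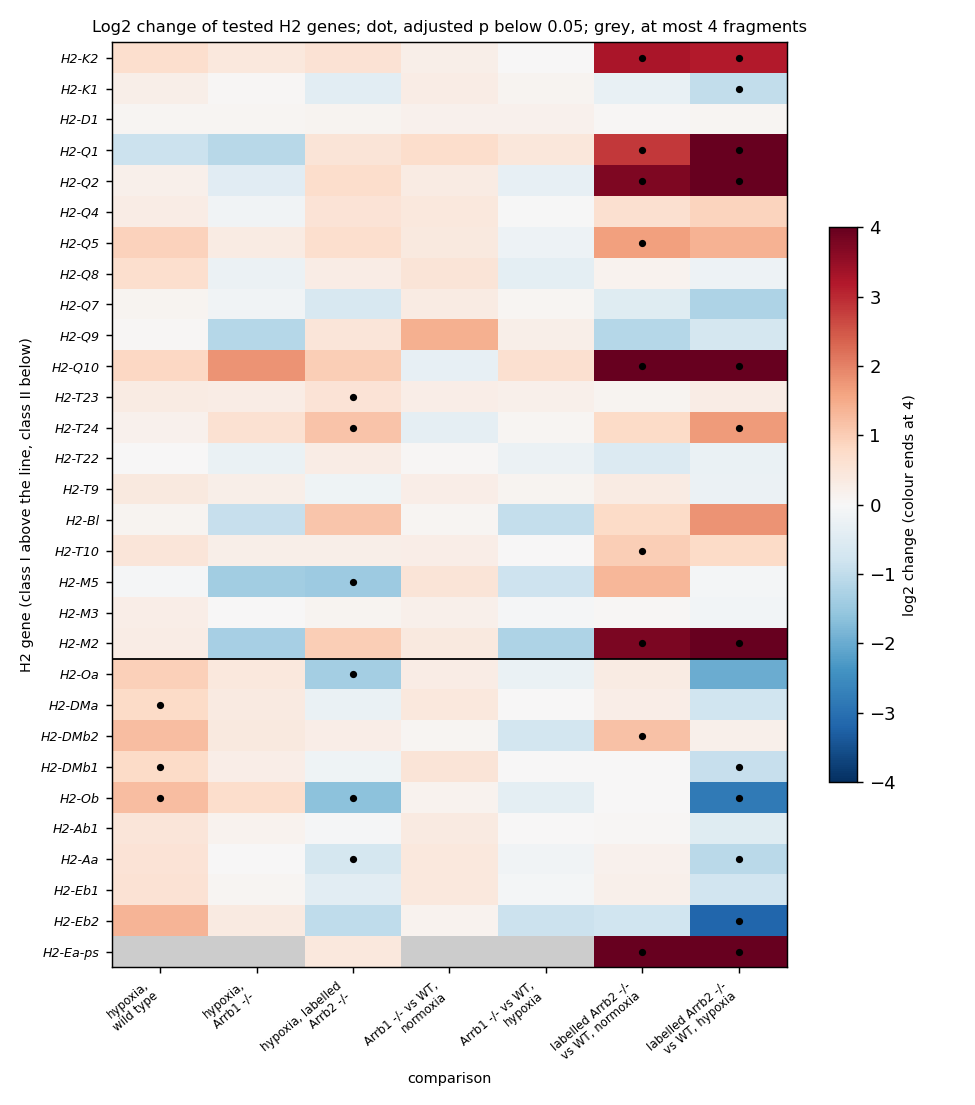
Log2 change of the 20 class I and 10 class II genes tested, in 7 comparisons (red, higher; blue, lower; colour ends at 4; dot, adjusted p below 0.05; grey, H2-Ea-ps where both groups held at most 4 fragments a library). The labelled β-arrestin 2 -/- columns hold 21 of the dots for differences from wild type and the β-arrestin 1 -/- columns hold 0. The 21 include the dots of H2-Ea-ps, and the column of labelled hypoxia holds a dot of H2-M5. These genes passed the filter on low counts only through labelled libraries, so their dots are no support.

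The genes that work with H2 proteins were described from lists of known partners. Of 15 class I partners, 0 were called in any of the 9 comparisons by edgeR. Among the partners were B2m, the light chain gene, and the peptide transporter genes Tap1 and Tap2. From 0 to 4 partners passed an unadjusted p below 0.05, beside 898 to 5724 of all 15388 genes. B2m held 959.8 to 1193 CPM in wild type and 984 to 1249 in the labelled libraries. Of 16 class II partners, 2 were called higher in wild type hypoxia, where 2.85% of all genes were. These were Cd40 (1.13 ± 0.15 (SE), adjusted p = 0.000668) and the transactivator Ciita (1.38 ± 0.38 (SE), adjusted p = 0.0489). In β-arrestin 1 -/- hypoxia Cd40 was higher (1.17 ± 0.15 (SE), adjusted p = 0.000711). In labelled hypoxia 2 were higher and 3 lower, which is 31.2% of the list beside 21.9% of all genes. Ciita, singled out after its value was seen, was higher (1.38 ± 0.38 (SE), adjusted p = 0.0188). Cd40 was the other higher gene (0.56 ± 0.15 (SE), adjusted p = 0.0154). The costimulator genes Cd86 (-1.16 ± 0.23 (SE), adjusted p = 0.00339) and Cd80 (-1.14 ± 0.31 (SE), adjusted p = 0.0182) were lower. Lgmn was lower too (-0.49 ± 0.10 (SE), adjusted p = 0.00385). Ciita held 9.28, 15.7 and 15.5 CPM in labelled normoxia and 50.3, 29.1 and 26.3 in hypoxia, without overlap. Cd74, the invariant chain that escorts class II molecules, was called in no comparison; it held 1092, 939 and 1397 in normoxia and 1385, 2004 and 2449 in hypoxia in wild type and 1202, 1322 and 1507 in normoxia and 1323, 1645 and 1363 in hypoxia in the labelled libraries. Of 31 tested interferon genes, 0 were called in wild type hypoxia by edgeR. There 5 of them passed an unadjusted p below 0.05, beside 2985 of all 15388 genes. In labelled hypoxia 4 interferon genes were higher and 7 lower (35.5%, beside the same 21.9%), among them Gbp5 (1.33 ± 0.34 (SE), adjusted p = 0.0127) and Mx1 (-1.80 ± 0.36 (SE), adjusted p = 0.00322).

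The genes most like the H2 genes across libraries were found by Pearson's r of log2 CPM over the 18 libraries, as a description. With the mean of H2-K1 and H2-D1 they were led by Tapbp (r = 0.911), the peptide-loading factor tapasin, Tap2 (0.899), Pnp2 (0.861), Tap1 (0.829) and the interferon factor Irf1 (0.802). With the mean of H2-Aa, H2-Ab1 and H2-Eb1 they were led by Cd83 (0.893), a marker of mature dendritic cells, Tap2 (0.874), Tapbp (0.868) and Ms4a7 (0.855), a macrophage gene. The points share the group structure and the same libraries. Without the 6 labelled libraries Tapbp stood at 0.912 with class I and Cd83 at 0.921 with class II.

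The authors' deposited table of comparisons called more of these genes. Of 27 H2 genes tested in the authors' deposited table, 12 had q below 0.05 with hypoxia in wild type, against 8.98% of all genes, among them H2-Aa, H2-Ab1 and H2-Eb1. For hypoxia in β-arrestin 1 -/- the authors' deposited table gave 4 of 27 (7.8% of all genes), and for the labelled β-arrestin 2 -/- line 12 of 30 (18.2%). Against wild type the authors' deposited table gave 2 of 26 (4.33%) and 2 of 27 (4.51%) for β-arrestin 1 -/- in normoxia and hypoxia. For the labelled line the authors' deposited table gave 12 of 29 (14.6%) in normoxia and 20 of 30 (5.28%) in hypoxia. Both of these counts hold H2-Ea-ps and H2-M2, and the count for hypoxia in the labelled line holds H2-M2. The authors gave these genes a test only in comparisons with labelled libraries, where they are high, so these calls are no support.

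Several of these genes share sequence, which bears on how fragments are divided. Of the 50-base stretches in the annotated transcripts of a gene, the share also found in transcripts of another gene was 36.4% for H2-Q5, 34.5% for H2-T22, 32.9% for H2-T10, 26.4% for H2-Q7 and 24.8% for H2-DMb2. It was 19% for H2-Q10, 16.1% for H2-Q2, 15% for H2-Q1, 9.63% for H2-K1, 9.38% for H2-K2 and 1.61% for H2-M2. It was 0 for H2-Ea-ps, H2-Ob, H2-Ab1 and H2-Oa, and 0.488% for H2-Aa. H2-DMb1, by contrast, shared 22.7% of its stretches, and 22.7% were shared with H2-DMb2. H2-D1 with H2-L, H2-Q6 with H2-Q8, H2-Q7 with H2-Q9, H2-T23 with H2-T24 and H2-T22 with H2-T9 also share 1 deposited interval each, so their separate values are uncertain. A move of fragments between copies was not tested.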

How the data were processed

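Whole-lung poly(A) RNA was sequenced in 18 libraries, 3 in each of 6 groups, starting from 1 µg. Per the labels' protocols the library kit keeps no strand information. The deposited tables hold an estimated count of fragments per gene and a normalized FPKM, both made by the authors. The submitters' processing notes name TopHat, Cuffdiff and the mm10 build without versions. The deposited table of comparisons holds the authors' p-values and q-values. FastQC is named there too.

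Estimated counts were rounded and fitted with edgeR 4.0.16 (TMM, quasi-likelihood, 1 fit of all 18 libraries, 15388 genes kept by filterByExpr with a minimum count of 10, Benjamini-Hochberg over all genes, threshold 0.05). Every adjusted p is from this fit unless another tool is named. Differences are log2 ± SE. Each SE was worked back from the F statistic, as the absolute log2 difference over the square root of F, so it is approximate. Alternatives were DESeq2 1.42.0, its size factors, leaving out the filter, limma 3.58.1 (log2 of FPKM plus a pseudocount of 1 or 0.1), fits of the compared groups alone, a replicate block, and libraries left out. Scripts were tested on simulated data. The interval of a fragment ratio is exact binomial and covers counting error only. Promoters are from RefSeq, transcripts from GENCODE. The H2 genes, the lists and the tests were chosen with earlier results of these data known. Values are given in every library for the main class I and class II genes and for every other H2 gene called in a comparison.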

Additional observations from a re-analysis of the deposited data

Results flagged for a closer look

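The hypoxia response of the libraries labelled β-arrestin 2 -/- differed from that of wild type at 4 class II genes, by the test of the difference itself (edgeR interaction term, adjusted p below 0.05). The difference on the log2 scale was -2.855 for H2-Ob, -2.320 for H2-Oa, -1.250 for H2-Aa and -0.924 for H2-DMb1. At H2-Ob wild type held 9.17, 7.36 and 13.3 CPM in normoxia and 11.1, 31.7 and 26.6 in hypoxia, while the labelled libraries held 11.6, 8.499 and 10.13 and then 3.94, 2.78 and 3.01. B cell marker sums were higher in wild type hypoxia too, from 17.2 to 56.0 CPM in normoxia to 57.1, 229 and 110.4 in hypoxia (replicates 0, 1 and 2). By the same test of the difference, 5 of 13 dendritic cell markers were called below 0 and 1 above, 2 of 9 interstitial macrophage and monocyte markers below 0, and 1 of 9 B cell markers below 0, against 6.05% of all genes. The part of these cells was not tested.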

How the results depend on the processing

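The 34 calls of single H2 genes gave 564 values under alternatives, of which 438 kept the call, 126 lost it and 0 turned direction; 17 calls were kept in all. Those were the 12 calls of H2-Ea-ps, H2-K2, H2-M2, H2-Q1, H2-Q2 and H2-Q10 against wild type, 3 of H2-Ob and 2 of H2-T24. The 2 of H2-Ea-ps are no sign of stability, since the filter on low counts kept it only through the labelled libraries; the same holds for the call of H2-M5. The number of H2 genes called in wild type hypoxia, 3, became 5 with DESeq2, 1 with each limma fit, 0 with the 2 groups alone and 0 to 8 with a library left out. In β-arrestin 1 -/- hypoxia DESeq2 called 1. In labelled β-arrestin 2 -/- hypoxia the 6 became 10 with the 2 groups alone and 2 to 8 with a library left out. For the difference between the hypoxia responses of that line and wild type the 4 became 8 with DESeq2, 2 with each limma fit, 7 with the 4 groups alone and 1 to 7 with a library left out. Counts over all genes under the same alternatives moved as well and are given below. The cause was not tested.

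Replicate numbers showed no pairing of the libraries on average: deviations of same-numbered libraries had a mean correlation of 0.019 (-0.463 to 0.47). Of 45 such pairs 14 were over 0.1, and 9 of 18 libraries correlated best with their own number. The mean cannot exclude a pairing within some of the groups. With the replicate block 2 H2 genes were called in wild type hypoxia and 6 in labelled hypoxia. It gave 7 and 13 for the labelled line against wild type in normoxia and hypoxia, and 5 for the difference of responses. Over all genes the block gave 656, 3315, 1223, 141 and 820 in the same order. Counts over all genes moved by more than 1.5 times: those called in wild type hypoxia, 733, ran from 495 to 1455 under other settings and from 209 to 943 with a library left out. For β-arrestin 1 -/- hypoxia the 454 ran from 47 to 841 and from 133 to 491. For labelled hypoxia the 3370 ran from 3071 to 4255 and from 1710 to 3107. Against wild type, the 1460 of the labelled line in normoxia ran from 1163 to 2753 and from 316 to 1922, and the 142 in hypoxia from 84 to 481 and from 52 to 298. The 34 of β-arrestin 1 -/- in normoxia ran from 27 to 176 and from 15 to 30, and the 31 in hypoxia from 12 to 155 and from 20 to 34. The 931 of the labelled line's difference in response ran from 690 to 1880 and from 313 to 2022, and the 0 of β-arrestin 1 -/- from 0 to 9 and 0 to 0. Genes near the floor, such as H2-M5 and H2-Eb2, rest on few fragments.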

Other observations

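As a description of the classes, 16 of 20 tested class I genes had a log2 change above 0 with hypoxia in the libraries labelled β-arrestin 2 -/-, with a median of 0.50, and 1 of 9 class II genes other than H2-Ea-ps did, with a median of -0.41, beside a median of -0.04 over all tested genes. In β-arrestin 1 -/- the medians were -0.06 for class I and 0.34 for class II, beside 0.02 over all genes, and in wild type they were 0.25 and 0.78. Against wild type in hypoxia the labelled libraries had medians of 0.53 for class I and -0.92 for class II. Of these genes, H2-M5 and H2-Bl entered only through fragments in the labelled libraries.

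The summed class I CPM was 3095 ± 226 in wild type normoxia and 3527 ± 780 in hypoxia (SD, n = 3), and 3243 ± 352 and 3586 ± 213 in the labelled libraries. The sum of class II, H2-Ea-ps included, was 1257 ± 166 and 1858 ± 566 in wild type and 1560.3 ± 73.3 and 1333 ± 119 in the labelled libraries.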
